A study of Rattus norvegicus with 47 samples.

Results

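The 41 genes described here act in mitosis, the division of a cell's duplicated chromosomes. They were taken by name from a given list that covers entry into mitosis, the spindle, the kinetochore, cytokinesis and mitotic exit. All 41 were found in each of the 4 count tables among 30045 gene lines, each on a single line. RNA had been sequenced from the lungs and blood of male rats of the inbred Fischer 344 strain, described as healthy, whose age is not given in the sources used here. The silica rats had inhaled Min-U-Sil 5, a respirable crystalline silica dust, at 15 mg/m3 in whole-body chambers for 6 h a day on 5 days, and the air rats had breathed filtered air. Tissue was collected 1 day or 6 months after exposure. The groups were lung of silica rats (6 libraries at each time) and of air rats (6 at 1 day and 5 at 6 months), and blood of silica rats and of air rats (6 each at each time), 47 libraries in all, each called here by the number in its label. The labels name no chamber or cage for a rat, so treatment and chamber cannot be told apart.

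Cells enter mitosis when the kinase Cdk1, bound to a cyclin, is activated. Chromosomes then condense, kinetochores built on the centromeres attach them to the spindle, and a checkpoint delays their separation until all are attached. The anaphase-promoting complex ends mitosis by marking cyclin B and other proteins for destruction. Most of these transcripts accumulate in late interphase and mitosis, so in a tissue of mainly resting cells they come largely from the few cells that divide. In the adult lung, alveolar type 2 cells, macrophages and endothelial cells are among those that can divide. In bulk tissue, more dividing cells and more RNA per dividing cell cannot be told apart.

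Total estimated counts per library ran from 9643527 to 25875985, and the 41 genes together held 2273 to 8330 counts per library. Levels are given as CPM, counts scaled to a common library size within a table, so levels from different tables are set side by side without a test. Over the genes tested, the mean correlation of a library with the others of its group was between 0.9793 and 0.9863. Scaling factors (TMM) were lowest in blood of air rat 40 at 1 day (0.8143) and highest in blood of silica rat 63 at 6 months (1.168). Summed CPM of 4 club cell markers was 4090 to 9280 in lung and at most 0.146 in blood, as the tissue labels state. In the reference table of GRCr8, 16 of the 41 genes overlap another gene, 11 of them a protein-coding one, such as Aurka with Fam210b, Plk1 with Ern2 and Kif4a with Pdzd11. The strand setting of the counting is not given in the sources used here, so reads of such partners may be shared.

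In lung 1 day after exposure, the mitosis genes were higher in silica rats nearly throughout. Of the 41 genes, all passed the filter on low counts, 38 rose and 0 fell (edgeR quasi-likelihood test, Benjamini-Hochberg adjusted p under 0.05). Among all 15331 genes tested, 8.39% were called higher and 5.72% lower. The median log2 fold change of silica over air was 1.13 for the mitosis genes and -0.0024 for all genes tested. A rise of at least 2-fold was called for 27 of the 41 and for 1.33% of all genes. In 36 of the 41, every silica lung lay above every air lung, which held for 5.04% of all genes. Summed over the 41 genes, silica lungs held 424, 495, 505, 450, 452 and 431 CPM, and air lungs 262, 261, 242, 259, 244 and 258 CPM. The sum weights abundant and long transcripts most. Leaving out any 1 library also gave 38 calls.

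At 6 months after exposure the mitosis genes were still higher in silica lungs, with 34 of 41 raised and 0 lowered against a background of 9.85% of 15309 genes called higher and 6.38% lower. The median log2 fold change was 0.79 (1.73-fold), and that of all genes tested was -0.008. At least 2-fold rises were called for 11 of the 41 and for 1.03% of all genes, and 32 of the 41 had every silica lung above every air lung, against 6.96% of all genes. Summed CPM was 394, 328, 363, 320, 326 and 335 in silica lungs and 269, 226, 212, 217 and 254 in air lungs, again without overlap. Leaving out 1 library gave 31 to 34 calls, the fewest without air rat 52 or 54.

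**Figure D1:**
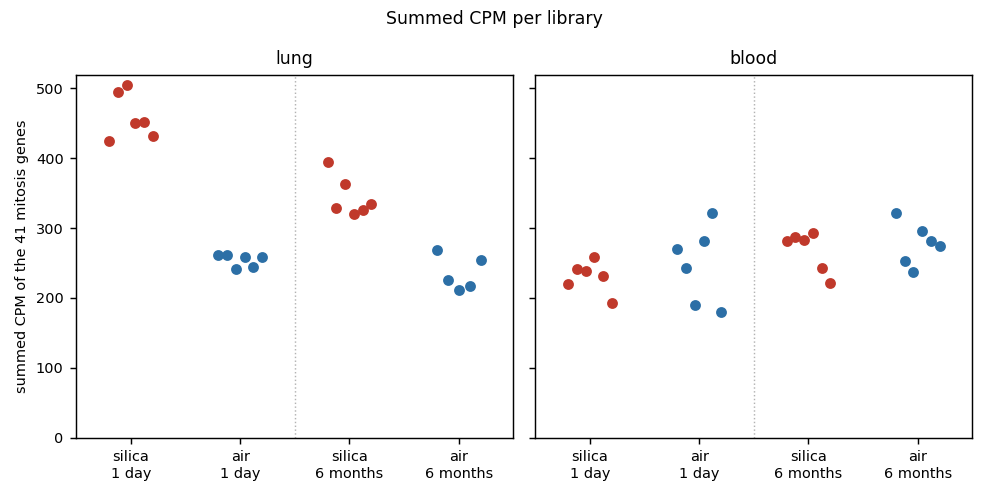
Summed CPM of the 41 mitosis genes in each library (points), in lung at left and blood at right, with silica and air groups at 1 day and 6 months, each time scaled within its own table. Silica lungs held 424 to 505 CPM at 1 day and 320 to 394 CPM at 6 months, above all air lungs of their time (242 to 262 and 212 to 269 CPM), whereas the blood groups overlapped.

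Promoters of many mitosis genes are known to carry the CHR element TTTGAA, bound by the DREAM and MuvB complexes, and CCAAT boxes bound by NF-Y, through which these genes are held silent in resting cells and switched on together in dividing ones. RefSeq promoters of build GRCr8, from 250 bases before to 50 bases after the gene start, matched 35 of the 41 genes. Ccna2, Pbk, Aurkb, Incenp, Tpx2 and Ube2c had no entry. The promoters of 5 genes are printed because they span the lung results: Cdk1, Plk1 and Mki67 rose at both times, Cdc20 was called at 1 day, and Kif4a was called at neither. They lie at chr20:19265043-19265342 (Cdk1, plus strand), chr1:186147408-186147707 (Plk1, plus), chr1:199952544-199952843 (Mki67, minus), chr5:137255750-137256049 (Cdc20, minus) and chrX:69761633-69761932 (Kif4a, plus). Capitals mark TTTGAA or CCAAT on either strand, so TTCAAA and ATTGG are also matches.
Cdk1: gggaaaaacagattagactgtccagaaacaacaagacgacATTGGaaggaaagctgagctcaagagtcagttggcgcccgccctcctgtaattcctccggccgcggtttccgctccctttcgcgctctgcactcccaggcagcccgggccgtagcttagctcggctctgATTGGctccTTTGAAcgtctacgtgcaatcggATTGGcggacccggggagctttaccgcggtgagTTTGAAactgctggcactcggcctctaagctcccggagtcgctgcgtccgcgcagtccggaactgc
Plk1: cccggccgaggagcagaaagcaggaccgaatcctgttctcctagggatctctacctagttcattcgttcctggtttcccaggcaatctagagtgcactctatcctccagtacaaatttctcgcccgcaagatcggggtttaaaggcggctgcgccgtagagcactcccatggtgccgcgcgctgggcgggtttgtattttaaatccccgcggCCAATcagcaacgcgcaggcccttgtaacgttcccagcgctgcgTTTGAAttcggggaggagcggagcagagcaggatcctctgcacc
Cdc20: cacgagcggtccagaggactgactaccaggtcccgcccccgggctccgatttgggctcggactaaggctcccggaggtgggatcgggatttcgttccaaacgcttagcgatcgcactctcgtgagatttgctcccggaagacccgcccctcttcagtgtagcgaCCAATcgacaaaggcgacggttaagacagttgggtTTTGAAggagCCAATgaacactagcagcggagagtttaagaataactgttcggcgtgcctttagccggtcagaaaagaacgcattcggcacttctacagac
Mki67: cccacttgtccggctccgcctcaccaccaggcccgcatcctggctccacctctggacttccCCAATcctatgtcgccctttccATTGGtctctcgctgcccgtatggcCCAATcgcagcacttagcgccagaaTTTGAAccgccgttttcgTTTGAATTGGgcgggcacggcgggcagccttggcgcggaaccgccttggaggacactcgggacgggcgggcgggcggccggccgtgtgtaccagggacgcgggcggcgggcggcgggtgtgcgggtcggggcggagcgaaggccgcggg
Kif4a: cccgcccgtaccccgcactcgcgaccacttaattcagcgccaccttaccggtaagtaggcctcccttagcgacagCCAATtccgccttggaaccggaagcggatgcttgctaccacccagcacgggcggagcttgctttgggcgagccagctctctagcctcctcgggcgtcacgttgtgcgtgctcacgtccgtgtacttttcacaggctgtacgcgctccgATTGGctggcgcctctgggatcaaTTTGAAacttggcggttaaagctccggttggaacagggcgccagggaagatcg

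The 35 genes had 36 promoter entries, and a gene was counted if any of its entries matched, whereas shares of all were counted by promoter. TTTGAA was present on either strand in 24 of the 35 genes (68.6%), and in 18.3% of all 33469 promoters of the table. CCAAT was present in 25 (71.4%) and in 37.5% of all promoters, and both motifs in 19 (54.3%) and in 7.41% of all. Of the 30 TTTGAA matches, 25 began no more than 100 bases before the gene start or after it, as did 29 of the 60 CCAAT matches. In 2 places the motifs overlapped, as in Mki67, and 5 of the 35 genes held neither. Kif4a held 1 TTTGAA and 2 CCAAT matches, as Cdc20 did. A match describes the letters of the window and is not evidence of binding.

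**Figure D2:**
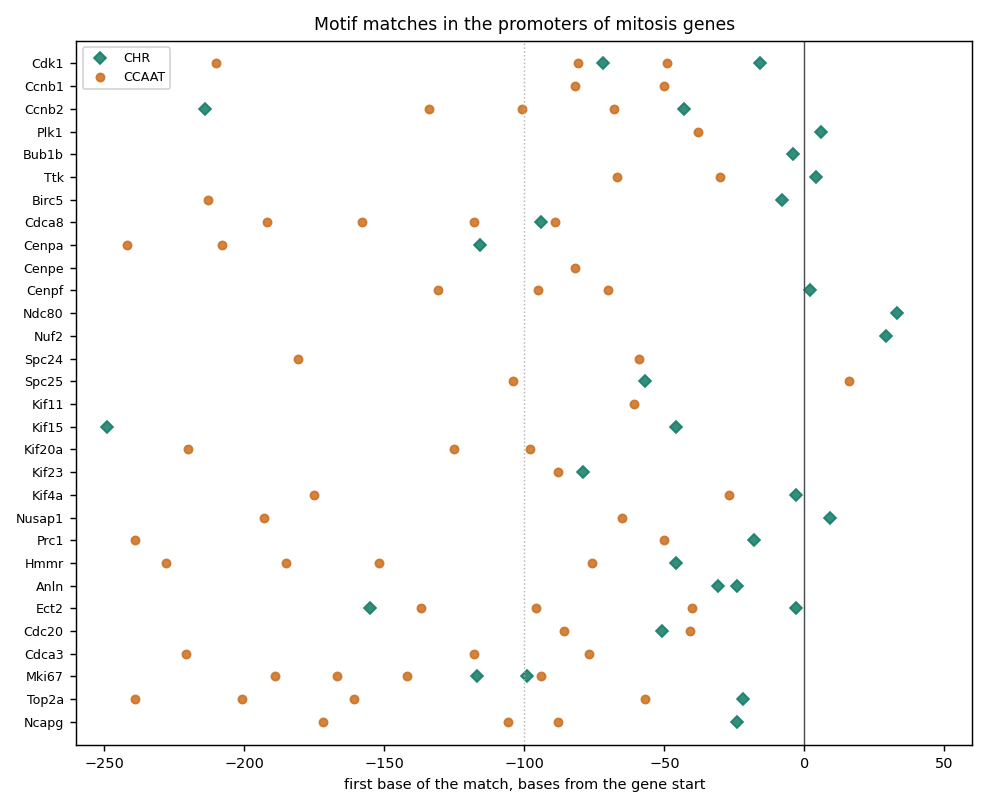
First base of each TTTGAA (CHR, diamonds) and CCAAT (circles) match on either strand, in bases from the gene start (0), for the 30 mitosis genes with at least 1 match, in order of role. Of 30 TTTGAA matches 25 lie right of the dotted line, which marks 100 bases before the start, and of 60 CCAAT matches 29 do.

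**Figure D3:**
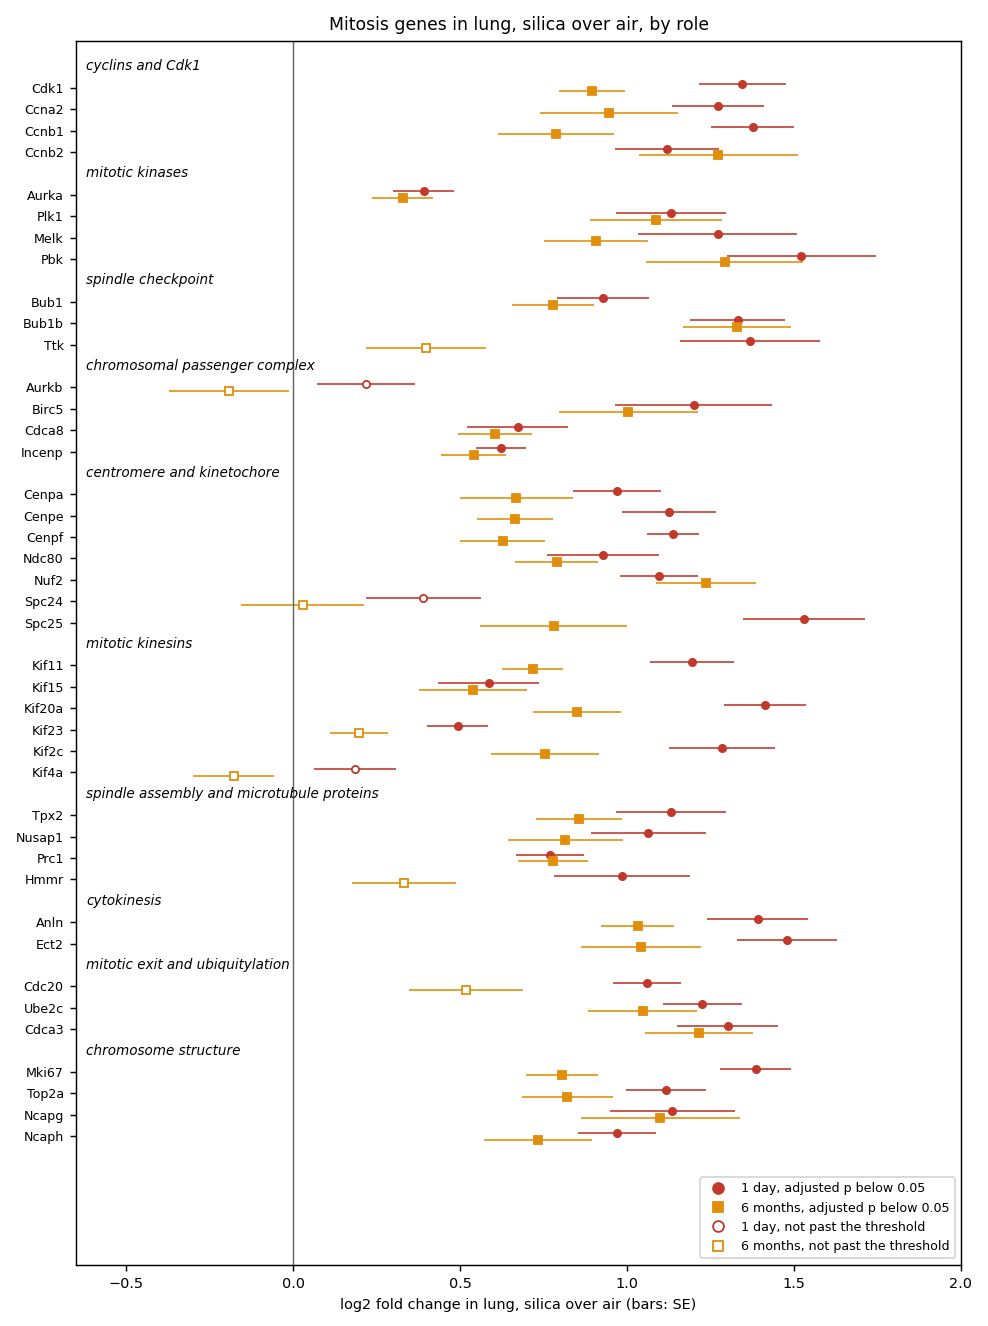
Log2 fold change of silica over air in lung (points, with SE as bars) for each of the 41 mitosis genes, grouped by role, at 1 day (circles) and 6 months (squares), with filled symbols past an adjusted p of 0.05. All 41 values lie above 0 at 1 day and 39 do at 6 months, where Aurkb and Kif4a lie below it.

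Cdk1 and its cyclins rose in lung at both times, 4 of 4 genes. Cdk1, the kinase that drives entry into mitosis, had 11.0 to 17.0 CPM in silica lungs at 1 day (median 12.9) and 3.88 to 6.3 CPM in air lungs (median 5.36). The groups did not overlap, and the log2 fold change was 1.35 ± 0.13 (SE, adjusted p = 1.20e-05). At 6 months Cdk1 had 8.76 to 10.5 CPM in silica lungs (median 9.25) and 5.63, 5.35, 4.63, 4.12 and 5.65 CPM in air lungs. The highest air lung lay well below the lowest silica lung, with a log2 fold change of 0.89 ± 0.10 (adjusted p = 0.000152). Ccnb1, cyclin B1, the mitotic partner of Cdk1, had 5.69 to 7.26 CPM in silica lungs at 1 day (median 6.511) and 2.06 to 3.24 CPM in air lungs (median 2.27). At 6 months Ccnb1 had 3.66 to 4.99 CPM in silica lungs (median 4.4) and 2.74, 3.16, 1.4, 2.85 and 2.42 CPM in air lungs. Ccnb1 groups were apart at both times, with log2 fold changes of 1.376 ± 0.13 at 1 day and 0.79 ± 0.17 at 6 months (adjusted p = 6.96e-06 and 0.00841). Ccnb2, a second cyclin B, rose by a log2 of 1.12 at 1 day and 1.27 at 6 months, and Ccna2, the cyclin A of S and G2 phase, by 1.27 and 0.95.

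All 4 genes grouped here as mitotic kinases (Aurka, Plk1, Melk and Pbk) rose at both times, Aurka least. Other kinases of the list were placed under other roles, among them Aurkb, called at neither time, and Ttk, called at 1 day alone. Plk1, polo-like kinase 1, which acts at centrosomes and kinetochores, had 3.91 to 6.48 CPM in silica lungs at 1 day (median 5.14) and 1.59 to 2.85 CPM in air lungs (median 2.42). At 6 months Plk1 had 2.97 to 5.77 CPM in silica lungs (median 3.97) and 1.95, 2.68, 1.487, 1.424 and 2.1 CPM in air lungs. No Plk1 value of an air lung reached those of silica lungs at either time, and the log2 fold changes were 1.13 ± 0.16 and 1.09 ± 0.20 (adjusted p = 0.000368 and 0.00299). Aurka, the Aurora kinase of spindle poles, had 8.5 to 9.74 CPM in silica lungs at 1 day (median 9.52) and 5.92 to 8.5 CPM in air lungs (median 7.39). The lowest silica lung met the highest air lung, and the log2 fold change of Aurka was 0.39 ± 0.091 (adjusted p = 0.00973). At 6 months Aurka had 7.55 to 9.94 CPM in silica lungs (median 9.1) and 7.58, 7.46, 6.69, 6.97 and 7.1 CPM in air lungs, a log2 fold change of 0.33 ± 0.091 (adjusted p = 0.0278). That call of Aurka was lost without any 1 of air rats 52, 53 and 54 or silica rats 58, 59 and 60 (adjusted p = 0.0528 to 0.0689). Pbk, a mitotic serine/threonine kinase, rose by a log2 of 1.52 at 1 day and 1.29 at 6 months, and Melk, a kinase of proliferating cells, by 1.27 and 0.91.

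The spindle checkpoint genes Bub1, Bub1b and Ttk rose at 1 day, and Bub1 and Bub1b at 6 months. Bub1, a checkpoint kinase of the kinetochore, had 11.6 to 15.3 CPM in silica lungs at 1 day (median 13.6) and 5.12 to 9.4 CPM in air lungs (median 7.11). At 6 months Bub1 had 9.18 to 13.3 CPM in silica lungs (median 11.3) and 6.28, 7.06, 5.21, 6.522 and 7.66 CPM in air lungs. Bub1 groups were apart at both times (log2 0.93 ± 0.14 and 0.78 ± 0.12, adjusted p = 0.000429 and 0.00131). Bub1b, which encodes BubR1, the part of the checkpoint complex that inhibits Cdc20, had the highest log2 fold change of the 41 genes at 6 months, 1.33 ± 0.16 (adjusted p = 0.000266). Its CPM there was 5.1 to 7.02 in silica lungs (median 6.18) and 1.81, 2.76, 2.15, 2.02 and 3.39 in air lungs, and at 1 day its log2 fold change was likewise 1.33. Ttk, the kinase Mps1 that starts checkpoint signalling, had 2.68 to 3.73 CPM in silica lungs at 1 day (median 3.28) and 0.838 to 2.12 CPM in air lungs (median 1.01), a log2 fold change of 1.368 ± 0.21 (adjusted p = 0.000536). At 6 months Ttk had 1.68 to 2.73 CPM in silica lungs (median 2.31) and 1.23, 2.03, 1.49, 1.95 and 2.02 CPM in air lungs. Those Ttk groups overlapped, and the log2 fold change of 0.40 ± 0.18 did not pass the test (adjusted p = 0.155, 95% interval from the SE 0.045 to 0.751).

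**Figure D4:**
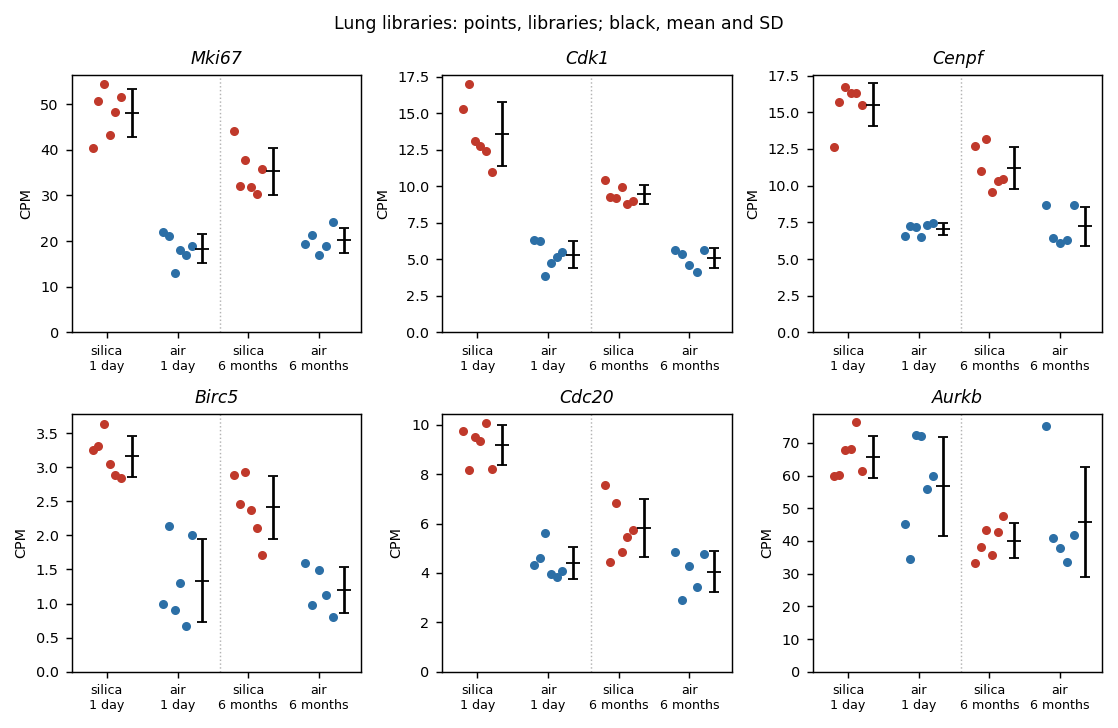
CPM of 6 mitosis genes in each lung library (points, silica red and air blue), with the group mean and SD in black, at 1 day left of the dotted line and 6 months right of it, each time scaled within its own table. Mki67, Cdk1, Cenpf and Birc5 have every silica lung above every air lung at both times, Cdc20 at 1 day, and Aurkb at neither.

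Of the 4 genes of the chromosomal passenger complex, which corrects faulty attachments and directs cytokinesis, 3 rose at each time, all but Aurkb. Aurkb was the most abundant of them, with a mean of 56.7 CPM in air lungs at 1 day. Incenp had 11.2, Cdca8 3.25 and Birc5 1.34 CPM there. Whether the Aurkb transcripts came from dividing cells was not tested. Aurkb, the Aurora kinase of the complex, had 59.9 to 76.6 CPM in silica lungs at 1 day (median 64.8) and 34.4 to 72.5 CPM in air lungs (median 57.9), with overlapping groups. Its log2 fold change was 0.22 ± 0.15 (adjusted p = 0.375, interval -0.071 to 0.505). At 6 months Aurkb had 33.2 to 47.8 CPM in silica lungs (median 40.5) and 75.1, 40.8, 37.8, 33.5 and 41.9 CPM in air lungs. Air rat 49 stood far above the other air lungs, and the log2 fold change of Aurkb was -0.19 ± 0.18 (adjusted p = 0.509), against 0.058 without that rat. Birc5, survivin, had 2.84 to 3.63 CPM in silica lungs at 1 day (median 3.15) and 0.667 to 2.14 CPM in air lungs (median 1.15). At 6 months Birc5 had 1.71 to 2.93 CPM in silica lungs (median 2.42) and 1.59, 0.973, 1.49, 1.12 and 0.807 CPM in air lungs. Birc5 groups were apart at both times, with log2 fold changes of 1.20 ± 0.23 and 1.00 ± 0.21 (adjusted p = 0.00322 and 0.00611). Cdca8, borealin, rose by a log2 of 0.67 at 1 day and 0.60 at 6 months, and Incenp, the scaffold of the complex, by 0.62 and 0.54. Differences between members of a complex were not tested.

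At the centromere and kinetochore, 6 of 7 genes rose at each time, all but Spc24. Cenpf, a large protein of the outer kinetochore, had 12.6 to 16.7 CPM in silica lungs at 1 day (median 16.0) and 6.48 to 7.46 CPM in air lungs (median 7.22). Its groups were far apart, and its log2 fold change of 1.14 ± 0.079 had the smallest adjusted p of the 41 genes, 7.75e-07. At 6 months Cenpf had 9.54 to 13.2 CPM in silica lungs (median 10.7) and 8.67, 6.41, 6.12, 6.3 and 8.71 CPM in air lungs, a log2 fold change of 0.63 ± 0.13 (adjusted p = 0.00541) without overlap. The Ndc80 complex, a rod of 4 subunits that grips microtubules, has 3 members here that rose at both times (Spc25, Nuf2 and Ndc80) and 1 that did not pass (Spc24). Its subunit Spc25 had the highest log2 fold change of all 41 genes at 1 day, 1.53 ± 0.18 (adjusted p = 7.35e-05), with 2.54 to 4.15 CPM in silica lungs (median 3.01) and 0.762 to 1.55 CPM in air lungs (median 1.01). At 6 months Spc25 had 1.81 to 3.67 CPM in silica lungs (median 2.1) and 1.01, 1.7, 1.07, 1.65 and 1.29 CPM in air lungs. The log2 fold change of Spc25 was then 0.78 ± 0.22 (adjusted p = 0.0297), and this call was lost without air rat 49, 52 or 54 (adjusted p = 0.0578 to 0.0726). Nuf2 rose by a log2 of 1.096 at 1 day and 1.24 at 6 months, and Ndc80 by 0.93 and 0.79. Spc24, the partner of Spc25, had 2.2 to 2.54 CPM in silica lungs at 1 day (median 2.36) and 1.12 to 2.39 CPM in air lungs (median 1.95), a log2 fold change of 0.39 ± 0.17 that did not pass (adjusted p = 0.153). At 6 months Spc24 had 1.443 to 2.16 CPM in silica lungs (median 1.87) and 1.405 to 2.42 CPM in air lungs (median 1.59), with full overlap (log2 0.028 ± 0.19, adjusted p = 0.938). Cenpa, the histone H3 variant that marks centromeres, rose by a log2 of 0.97 at 1 day and 0.67 at 6 months. Cenpe, a kinetochore motor, rose by 1.13 and 0.66.

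Of the 6 mitotic kinesins, 5 rose at 1 day and 4 at 6 months. Kif20a, a motor of the central spindle, rose by a log2 of 1.413 at 1 day and 0.85 at 6 months. Kif2c, which takes microtubules apart at centromeres, rose by 1.28 and 0.75, and Kif11, which pushes spindle poles apart, by 1.19 and 0.72. Kif15, which can share the work of Kif11, rose by 0.59 and 0.54. The 6-month call of Kif15 had an adjusted p of 0.0391 and was lost without any 1 of air rats 51 to 54 or silica rats 58, 60 and 61 (adjusted p = 0.0696 to 0.0863), with limma-voom (0.0598) and with no filter (0.0581). Kif23, a subunit of the centralspindlin complex, had 15.1 to 20.3 CPM in silica lungs at 1 day (median 18.7) and 11.0 to 14.9 CPM in air lungs (median 13.0), a log2 fold change of 0.49 ± 0.091 (adjusted p = 0.00219). At 6 months Kif23 had 13.1 to 16.5 CPM in silica lungs (median 14.5) and 11.2, 12.8, 11.4, 13.0 and 14.8 CPM in air lungs. The Kif23 groups then overlapped, with a log2 fold change of 0.20 ± 0.087 (adjusted p = 0.149). Kif4a, a motor on chromosome arms and the central spindle, had the lowest log2 fold change of the 41 genes at 1 day, 0.18 ± 0.12 (adjusted p = 0.364, interval -0.055 to 0.424). Kif4a held 16.9 to 23.6 CPM in silica lungs (median 18.8) and 12.6 to 21.3 CPM in air lungs (median 17.2) at 1 day. At 6 months it held 12.6 to 20.9 CPM in silica lungs (median 15.5) and 17.4, 16.9, 16.9, 18.8 and 21.6 CPM in air lungs, a log2 fold change of -0.18 ± 0.12 (adjusted p = 0.349). Kif4a groups overlapped at both times.

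Of 4 spindle assembly genes, all rose at 1 day and all but Hmmr at 6 months. Prc1, which bundles microtubules at the middle of the spindle, had 29.7 to 40.8 CPM in silica lungs at 1 day (median 35.3) and 14.9 to 24.6 CPM in air lungs (median 20.7). At 6 months Prc1 had 23.2 to 37.4 CPM in silica lungs (median 27.7) and 18.1, 15.9, 17.9, 16.0 and 15.4 CPM in air lungs. Prc1 was one of 3 genes whose log2 fold change was not smaller at 6 months, 0.77 ± 0.10 at 1 day and 0.78 ± 0.10 at 6 months (adjusted p = 0.000162 and 0.000487). Tpx2, which activates Aurora A on the spindle, rose by a log2 of 1.13 at 1 day and 0.86 at 6 months, and Nusap1, a protein of spindle microtubules, by 1.06 and 0.82. Hmmr, a hyaluronan-binding protein that also acts at the spindle, rose at 1 day (log2 0.99 ± 0.20, adjusted p = 0.00455), with 3.72 to 6.29 CPM in silica lungs (median 5.32) and 1.57 to 3.44 CPM in air lungs (median 2.69). At 6 months Hmmr had 2.8 to 4.67 CPM in silica lungs (median 3.78) and 3.83, 2.92, 2.56, 2.62 and 3.23 CPM in air lungs, an overlap with a log2 fold change of 0.33 ± 0.16 (adjusted p = 0.168).

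Both cytokinesis genes rose at both times. Anln, anillin, the scaffold of the contractile ring, had 8.86 to 11.3 CPM in silica lungs at 1 day (median 10.3) and 2.39 to 5.61 CPM in air lungs (median 3.85). At 6 months Anln had 7.54 to 9.36 CPM in silica lungs (median 8.11) and 3.76, 4.38, 3.22, 4.72 and 4.11 CPM in air lungs. Its groups lay apart at both times (log2 1.391 ± 0.15 and 1.03 ± 0.11), and its adjusted p at 6 months, 0.000113, was the smallest of the 41 genes there. Ect2, an exchange factor needed to build that ring, rose by a log2 of 1.478 at 1 day and 1.04 at 6 months.

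Among the genes of mitotic exit, Ube2c and Cdca3 rose at both times and Cdc20 at 1 day. Cdc20, the activator of the anaphase-promoting complex, had 8.16 to 10.1 CPM in silica lungs at 1 day (median 9.42) and 3.85 to 5.61 CPM in air lungs (median 4.2), a log2 fold change of 1.06 ± 0.10 (adjusted p = 1.12e-05) without overlap. At 6 months Cdc20 had 4.46 to 7.57 CPM in silica lungs (median 5.61) and 4.84, 2.92, 4.3, 3.45 and 4.76 CPM in air lungs. The Cdc20 groups overlapped, and the log2 fold change of 0.52 ± 0.17 stood just outside the threshold (adjusted p = 0.0558). It passed with DESeq2 (0.0293), with all 4 lung groups in 1 model (0.0143) and without silica rat 59 (0.04). Ube2c, the ubiquitin-conjugating enzyme that works with the complex, rose by a log2 of 1.23 at 1 day and 1.05 at 6 months. Cdca3, a protein of mitotic entry that the complex degrades, rose by 1.30 and 1.22.

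All 4 genes of chromosome structure rose at both times. Mki67, the Ki-67 antigen that coats mitotic chromosomes and is used as a marker of cycling cells, had 40.5 to 54.4 CPM in silica lungs at 1 day (median 49.5) and 13.0 to 21.9 CPM in air lungs (median 18.5). At 6 months Mki67 had 30.3 to 44.1 CPM in silica lungs (median 34.0) and 19.4, 21.3, 16.9, 19.0 and 24.3 CPM in air lungs. No air lung reached a silica lung at either time (log2 1.385 ± 0.11 and 0.80 ± 0.11). Top2a, topoisomerase II alpha, which untangles sister chromatids, had 19.4 to 29.3 CPM in silica lungs at 1 day (median 22.4) and 8.0 to 13.4 CPM in air lungs (median 10.6). At 6 months Top2a had 15.2 to 19.0 CPM in silica lungs (median 17.0) and 9.17, 7.46, 8.18, 9.07 and 14.0 CPM in air lungs. Air rat 54 was the highest air lung and came near the lowest silica lung, and the log2 fold changes of Top2a were 1.12 ± 0.12 and 0.82 ± 0.14 (adjusted p = 2.76e-05 and 0.00177). Ncapg and Ncaph, subunits of condensin I, rose by a log2 of 1.14 and 0.97 at 1 day, and by 1.099 and 0.73 at 6 months.

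Whether the lung response differed between times was tested as an interaction over the 4 lung groups. The 1-day and 6-month comparisons shared 34 called genes, Ttk, Kif23, Hmmr and Cdc20 were called at 1 day alone, and Aurkb, Spc24 and Kif4a at neither. In the separate comparisons the log2 fold change was smaller at 6 months in 38 of 41 genes. In the interaction fit the median difference (6 months minus 1 day) was -0.29, with 4 of the 41 above 0, and -0.005 over all genes tested. No gene of the 41 passed the interaction test (0 of 41 by edgeR and by limma-voom, 13 at an unadjusted p under 0.05), where 1.12% of 15786 genes were called higher and 0.253% lower. Mki67 came nearest, with a difference of -0.58 ± 0.16 (adjusted p = 0.0766), followed by Cenpf with -0.51 ± 0.15 (adjusted p = 0.0884), and Ttk had -0.96 ± 0.28 (adjusted p = 0.0978). Ccnb2 had the highest difference, 0.16 ± 0.28 (adjusted p = 0.855), which was -0.039 without air rat 54 at 6 months. Leaving out 1 library gave 0 or 1 call, and 1 without air rat 37 or 38 at 1 day, air rat 52 or silica rat 58 at 6 months. Ttk was called without air rat 37 (-1.18, adjusted p = 0.0177) and Mki67 without silica rat 58 (-0.65, adjusted p = 0.0395).

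Within groups the genes varied little in lung and more in blood. The median coefficient of variation over the 41 genes was 13.5% in silica lungs and 18.7% in air lungs at 1 day, and 14.5% in silica and 18.3% in air lungs at 6 months. In blood it was 30.2% in silica rats and 36.4% in air rats at 1 day, and 26.5% and 24.7% at 6 months. Libraries tended to be high or low for many of the genes together. Silica rat 58 held the highest value of its group for 27 of 41 genes in lung at 6 months, and air rat 41 for 27 of 41 in blood at 1 day, where silica rat 48 held the lowest for 25.

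In blood the mitosis genes did not differ detectably between silica and air rats. At 1 day 39 of the 41 passed the filter on low counts (Pbk and Ttk did not), and 0 were called in either direction, with 0 at an unadjusted p under 0.05 and 0 calls by DESeq2. Of 12253 genes tested in that blood, 1.25% were called higher and 0.196% lower. The median log2 fold change was -0.081 for the mitosis genes and -0.01 for all genes. At 6 months 32 of the 41 were tested, 0 were called by edgeR or DESeq2, and 3 had an unadjusted p under 0.05 (Incenp, Cdk1 and Cenpa), against 0.0086% of 11629 genes called higher and 0.0% lower. The median was then -0.072 for the mitosis genes and -0.0087 for all genes. At 1 day Ect2 had the highest log2 fold change of those tested (0.53 ± 0.34) and Kif2c the lowest (-0.37 ± 0.36), on 3 to 33 and 12 to 30 counts a library in silica blood, and Ncapg the smallest adjusted p (0.523). At 6 months Hmmr had the highest (0.40 ± 0.29) and Cdk1 the lowest, and Incenp (0.32 ± 0.13) had the smallest adjusted p, 0.539. The effect in blood did not differ detectably between times (0 of 39 called, 1 at an unadjusted p under 0.05, 0.0% of 12444 genes called).

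Ube2c showed the pattern of blood with the most counts behind it, 907 to 1588 a library in silica and 982 to 1529 in air blood at 1 day. Ube2c had 72.1 to 82.0 CPM in silica blood at 1 day (median 77.8) and 70.3 to 111.0 CPM in air blood (median 80.6), and 78.4 to 123.0 (median 110.0) and 91.8 to 127.0 CPM (median 105.0) at 6 months. In lung, in tables scaled separately, the same gene had 1.75 to 5.39 CPM, and its silica and air groups in blood overlapped at both times. Cdc20 had 11.6 to 29.9 CPM in silica blood at 1 day (median 19.6) and 14.2 to 29.4 CPM in air blood (median 24.5). The log2 fold change of Ube2c in blood at 1 day was -0.17 ± 0.11 (adjusted p = 0.563, interval -0.385 to 0.046), and that of Cdc20 was -0.16 ± 0.20 (adjusted p = 0.803, interval -0.557 to 0.235). Mki67 had 9.85 to 13.0 CPM in silica blood at 1 day (median 11.2) and 7.05 to 15.9 CPM in air blood (median 12.5), where the air rats spanned the silica rats (log2 -0.11 ± 0.17, adjusted p = 0.838, interval -0.443 to 0.216). Cdk1 rested on 8 to 59 counts a library in silica blood and 12 to 58 in air blood at 1 day, and its interval there was wide (-0.99 to 0.516). At 6 months Cdk1 had 0.602 to 1.71 CPM in silica blood (median 0.987) and 1.1 to 1.85 CPM in air blood (median 1.55), a log2 fold change of -0.55 ± 0.23 that did not pass (adjusted p = 0.556).

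The silica effect in lung was compared with that in blood by an interaction over the 4 groups of a time. At 1 day the effect was higher in lung for 19 of the 41 genes and lower for 0, where 2.06% of 15989 genes were called higher and 1.98% lower. Genes with few counts in blood could enter this test through lung alone. Ttk, one of the 19, had not passed the filter in blood, and of the 39 genes that passed it in both tissues 18 were called, against 2.59% of all 11728 such genes. Mki67 had the smallest adjusted p, with a difference (lung minus blood) of 1.45 ± 0.21 on the log2 scale (adjusted p = 0.000112), followed by Ube2c with 1.34 ± 0.20 (adjusted p = 0.000174) and Incenp with 0.73 ± 0.12 (adjusted p = 0.000615). The mitotic exit genes Cdc20, Ube2c and Cdca3 were all called, as were Ccnb1 (1.31 ± 0.25), Birc5 (1.30 ± 0.28), Anln (1.71 ± 0.38) and Cdk1 (1.54 ± 0.41). At 6 months 17 of 41 were called higher and 0 lower, against 2.55% of 15790 genes called higher and 1.0% lower. Melk, Nuf2 and Spc25 among the 17 had not passed the filter in blood, and of the 32 genes that passed it in both tissues 14 were called, against 3.41% of all 11224 such genes. Cdk1 then had the smallest adjusted p (1.422 ± 0.24, adjusted p = 0.00142), with Anln (1.30 ± 0.22) and Birc5 (1.17 ± 0.22) next. Called at both times were 11 genes: Cdk1, Birc5, Ndc80, Spc25, Kif11, Tpx2, Prc1, Anln, Ube2c, Cdca3 and Mki67. Pbk at 1 day and Melk at 6 months had at most 13 and 14 counts a library in blood, where they had not passed the filter, and no difference is given for them. Kif4a had the lowest at both times (0.21 ± 0.21 and -0.17 ± 0.22), and Aurkb, Spc24 and Kif4a were called at neither.

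The number of calls between tissues depended on single libraries and on the model. Leaving out 1 library gave 14 to 26 calls at 1 day (fewest without blood air rat 37 or 41, most without blood air rat 42) and 14 to 19 at 6 months (fewest without lung air rat 52). The same fits called 275 to 414 of all genes higher in lung at 1 day and 253 to 426 at 6 months. Cdk1 at 1 day was lost without lung air rat 39, lung silica rat 44, blood air rat 37, 38 or 41 or blood silica rat 45 (adjusted p = 0.0511 to 0.0708), and with limma-voom (0.0599). Prc1 at 1 day was lost without lung air rat 42, lung silica rat 44, 45 or 46, blood air rat 37 or 41 or blood silica rat 47 (adjusted p up to 0.0601). Mki67 at 6 months was lost without lung air rat 52 or 53 or blood air rat 51 (adjusted p = 0.0527 to 0.0542), and with limma-voom (0.0501), as was Ube2c at 6 months with limma-voom (0.0662). A further fit took the number that lung and blood labels share as a replicate block, with a level for each number. It called 14 genes at 1 day (12 numbers) and 4 at 6 months (9 numbers). The 14 included Ttk, which had not passed the filter in blood. The share of all genes called in that fit is not given here. Birc5 at 1 day and Anln, Mki67, Prc1 and Melk at 6 months were not called in it.

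**Figure D5:**
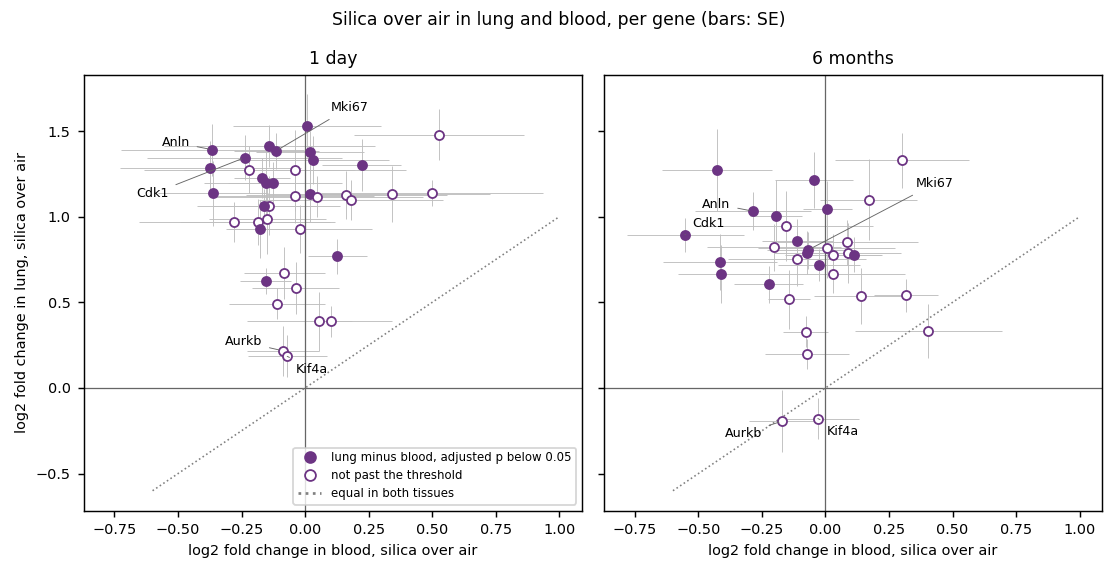
Log2 fold change of silica over air in lung (vertical) and blood (horizontal) for each mitosis gene tested in both, with SE as bars, at 1 day (39 genes) and 6 months (32 genes). Filled points passed the test of lung minus blood and the dotted line marks equal effects. At 1 day all points lie above 0 in lung while blood values scatter around 0 (median -0.081).

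Further genes of cell division also rose in lung, where 8.39% of all genes were called higher and 5.72% lower at 1 day, and 9.85% and 6.38% at 6 months. Of 67 further mitosis genes tested at 1 day, 53 rose and 0 fell, among them Nek2, a centrosome kinase (log2 1.45 ± 0.13), Racgap1, the partner of Kif23 (1.09 ± 0.097), and Plk4, which starts centriole duplication (0.96 ± 0.091). At 6 months 41 of 66 rose and 1 fell, with Hjurp, the chaperone of Cenpa, at 1.08 ± 0.15 and Racgap1 at 0.88 ± 0.13. The gene that fell was Cdc25b, a phosphatase that activates Cdk1, at 33.6 ± 3.42 CPM in silica lungs and 39.5 ± 2.32 CPM in air lungs (SD, n = 6 and 5, log2 -0.24 ± 0.067, adjusted p = 0.0316). Of 15 genes of the anaphase-promoting complex (core subunits and the activator Fzr1), 1 rose at each time. These were Anapc15 at 1 day (0.19 ± 0.061) and Anapc4 at 6 months (0.22 ± 0.036). Anapc16 (-0.20 ± 0.065) and Cdc27 (0.10 ± 0.041) did not pass at 1 day, nor Anapc15 (0.21 ± 0.075) and Anapc11 (0.16 ± 0.064) at 6 months. Of 10 cohesin genes 0 were called at 1 day (0 also at an unadjusted p under 0.05, with Pds5a nearest at 0.078 ± 0.042, then Smc3 at 0.052 ± 0.032 and Mau2 at 0.074 ± 0.052), and at 6 months Wapal rose (0.10 ± 0.029) while Pds5b (-0.17 ± 0.040) and Stag1 (-0.11 ± 0.036) fell. All 22 DNA replication genes rose at 1 day and 12 of 22 at 6 months, Rrm2, a subunit of ribonucleotide reductase, by a log2 of 1.30 ± 0.12 and 1.23 ± 0.11, and Mcm5, of the replicative helicase, by 1.24 ± 0.12 and 0.66 ± 0.12. Tk1, thymidine kinase, rose by 1.00 ± 0.083 at 1 day and Gins1, another helicase subunit, by 1.12 ± 0.18 at 6 months.

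Among 21 transcriptional regulators of the cell cycle, 5 rose and 1 fell in lung at 1 day, beside the shares of 8.39% and 5.72% of all genes. Those that rose were Mybl2 (1.373 ± 0.18) and Foxm1 (0.68 ± 0.097), activators of mitotic genes, the E2F repressors E2f7 (1.476 ± 0.20) and E2f8 (1.04 ± 0.20), and Rbl1, the pocket protein p107 (0.51 ± 0.11). Rbl2, the pocket protein p130 of the DREAM complex, fell (-0.14 ± 0.036, adjusted p = 0.0162). At 6 months Mybl2 (0.76 ± 0.21), E2f7 (1.17 ± 0.32) and E2f8 (1.03 ± 0.29) rose, Foxm1 missed the threshold (0.40 ± 0.13, adjusted p = 0.0535), and Rbl2 (-0.16 ± 0.049) and Lin52 (-0.15 ± 0.047), another DREAM subunit, fell, beside shares of 9.85% higher and 6.38% lower of all genes. Of 8 G1 cyclins and kinases Ccne1, Ccne2 and Cdk2 rose at 1 day, and Ccne1 and Ccne2 at 6 months, where Ccnd1 did not pass (-0.18 ± 0.076). Of 6 genes named as inhibitors of cyclin-dependent kinases, Cdkn3, a phosphatase of such kinases, rose at both times (1.32 ± 0.21 and 0.96 ± 0.16) and Cdkn1b, the inhibitor p27, fell at both (-0.13 ± 0.038 and -0.22 ± 0.047). At 1 day Cdkn2b rose (0.20 ± 0.035) and Cdkn1c fell (-0.43 ± 0.11), which did not pass at 6 months (-0.17 ± 0.11). The shares called in these lists were not tested against those of all genes. In blood 0 genes of these lists were called at either time.

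Cell type markers also differed between silica and air lungs. Summed CPM of 8 macrophage markers was 889 to 1010 in silica lungs and 507 to 735 in air lungs at 1 day, and 1020 to 1320 and 606 to 756 at 6 months. Of 7 macrophage markers tested, 4 were called higher and 1 lower at 1 day, and 6 higher and 0 lower at 6 months (median log2 0.32 and 0.77). The sum of 8 neutrophil markers was 293 to 654 in silica and 115 to 240 in air lungs at 1 day, and 418 to 609 and 208 to 315 at 6 months. Of the 8, 6 were called higher and 1 lower at 1 day (median log2 0.98), and 3 higher and 0 lower at 6 months (median log2 0.21). Alveolar type 2 markers (6 genes) overlapped at 1 day, at 20700 to 26100 CPM in silica and 20300 to 24800 CPM in air lungs, and were apart at 6 months, at 27400 to 33900 and 19100 to 24100 CPM. Of the 6, 2 were called higher and 1 lower at 1 day, and 5 higher and 0 lower at 6 months. Endothelial markers (5 genes) were 2550 to 2830 CPM in silica and 2810 to 3090 CPM in air lungs at 1 day, and 2260 to 2690 and 2860 to 3120 CPM at 6 months. By gene, 2 of the 5 endothelial markers were called lower at 1 day and 5 at 6 months, with 0 called higher. Erythroid markers (8 genes) were 2880 to 3800 CPM in silica and 3800 to 5060 CPM in air lungs at 1 day. Of 7 erythroid markers tested then, 1 was called higher and 5 lower. At 6 months their sums overlapped (3200 to 4950 CPM in silica and 4110 to 5830 CPM in air lungs). The 4 granulocyte precursor markers (Mpo, Elane, Prtn3 and Ctsg), of cells that divide in bone marrow, summed to at most 0.622 CPM in silica and 0.735 CPM in air lungs at 1 day, and 0.624 and 0.887 CPM at 6 months. T cell markers (5 genes) summed to 109 to 128 CPM in silica and 129 to 150 CPM in air lungs at 1 day. Ciliated cell markers (5 genes) summed to 558 to 669 and 773 to 844 CPM, and both sums overlapped at 6 months. By gene, 1 of 5 T cell and 1 of 5 ciliated cell markers were called lower and 0 higher at 1 day (median log2 -0.098 and -0.034). Alveolar type 1 markers (5 genes) were 3510 to 3720 CPM in silica and 3830 to 4580 CPM in air lungs at 1 day, with 4 called lower. At 6 months their sums overlapped (3470 to 3930 CPM in silica and 3870 to 4290 CPM in air lungs), with 1 called lower. Plasma cell markers (4 genes) overlapped at 1 day (562 to 629 CPM in silica and 533 to 630 CPM in air lungs). At 6 months they were 603 to 728 CPM in silica and 519 to 600 CPM in air lungs, with 1 of 3 tested called higher. In air blood at 1 day, scaled separately, the sum of these plasma cell markers was 46.6 to 58.3 CPM. Which lung cells gave this sum was not tested. B cell, fibroblast and club cell markers overlapped between groups at both times (13.8 to 30.8 CPM in silica and 15.0 to 35.1 CPM in air lungs at 1 day for the 5 B cell genes). No marker of these lists was at 0 in all lungs of a group. The part of these cell types in the rise of the mitosis genes was not tested. In blood at 1 day the neutrophil markers were 3460 to 4230 CPM in silica and 2120 to 2710 CPM in air rats. Of these 8, 4 were called higher and 0 lower (median log2 0.36), beside 1.25% and 0.196% of all genes.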

How the data were processed

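RNA was measured in 47 libraries of lung and blood, in 4 tables, 1 for each tissue and time. The values are estimated counts per gene that the authors deposited, not normalized and partly not whole. Per the submitters' processing notes, which give no role or order, the tools were bcl2fastq 2.19, cutadapt 3.4, Trim Galore 0.6.7, STAR 2.6.1d and Salmon 1.10.1, with the build Rnor_6.0. Per the labels' protocols, libraries were stranded mRNA libraries and globin mRNA was depleted from blood. The quantification setting for strand is not given in the sources used here.

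Counts were rounded to whole numbers. Genes were kept by edgeR's filterByExpr with a minimum count of 10, scaled by TMM and tested with the quasi-likelihood test of edgeR 4.0.16 in R 4.3.3, within a tissue and time, with Benjamini-Hochberg adjustment over all genes tested and a threshold of 0.05. CPM used the TMM library sizes of a table. SE was obtained by dividing the absolute log2 fold change by the square root of F, and 95% intervals are normal ones from it. Differences between times and tissues were interaction terms over 4 groups. No label says which libraries came from separate rats, so p-values measure the spread between libraries. A rat named by its number in this text stands for the library with that number. The main fit of lung minus blood had no replicate block and treated same-numbered libraries as independent. Alternatives used DESeq2 1.42.0, limma 3.58.1 (voom), sva 3.50.0, other scalings and filters, and left out each library. Total counts per library of 9643527 to 25875985 limit the precision for genes with few counts. The test was checked on simulated counts.

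The members, the other lists and the tests were chosen with earlier results of these data known. Genes with values by library were, by rule, the gene of highest lung CPM in each role and a given set of well-known members (14 in all), those of highest and lowest log2 fold change or smallest p in a comparison, and those that did not pass in lung. In each further list the 3 genes of smallest p in each lung comparison and those called against most of their list were named, except for 1 gene not reported here. Other values, such as those of Ube2c in blood, were added after they were seen.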

Additional observations from a re-analysis of the deposited data

Results flagged for a closer look

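The 14 genes described by library, and the sum over the 41, were examined in each group for a single library far from the others of its group. Of 120 groups 9 had one, where chance gives about 1 in 20.

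In lung, Aurkb was 75.1 CPM in air rat 49 at 6 months, against 33.5 to 41.9 CPM in the other air lungs. Top2a was 14.0 CPM in air rat 54 at 6 months, against 7.46 to 9.17 CPM. Both genes lay lower in the rest of their group. At 1 day Aurka was 8.5 CPM in silica rat 47, against 9.43 to 9.74 CPM in the other silica lungs, and Cenpf was 12.6 CPM in silica rat 43, against 15.5 to 16.7 CPM.

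In blood, Top2a was 1.19 CPM in silica rat 48 at 1 day, against 4.93 to 7.07 CPM in the other silica rats. Air rat 41 stood high for both Aurora kinases at 1 day, with 13.2 CPM for Aurka against 9.88 to 11.1 CPM, and 9.18 CPM for Aurkb against 5.89 to 7.03 CPM. At 6 months Anln was 1.52 CPM in air rat 56, against 0.824 to 0.927 CPM, and Cenpf was 1.374 CPM in air rat 55, against 0.342 to 0.675 CPM.

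The silica effect differed between lung and blood by the interaction test for 19 of the 41 genes at 1 day and 17 at 6 months, each time higher in lung. Of all genes tested, 2.06% were called higher in lung at 1 day and 2.55% at 6 months. Some of the 41 entered the test through lung alone. Of those that passed the filter in both tissues, 18 of 39 and 14 of 32 were called, against 2.59% and 3.41% of all such genes. On the log2 scale of lung minus blood, the named genes at 1 day were Anln (1.71), Cdk1 (1.54), Mki67 (1.45), Ccnb1 (1.31), Birc5 (1.30), Cdc20 (1.18) and Prc1 (0.60). At 6 months they were Cdk1 (1.422), Anln (1.30), Birc5 (1.17), Mki67 (0.85) and Prc1 (0.64). Not every alternative kept these calls. Cdk1 and Prc1 at 1 day and Mki67 at 6 months lost theirs without some single libraries. Cdk1 at 1 day and Mki67 at 6 months also lost theirs with limma-voom. With the shared number as a replicate block, Birc5 at 1 day and Anln, Mki67 and Prc1 at 6 months were not called. That fit at 6 months held only the libraries of 9 shared numbers.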

How the results depend on the processing

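In lung at 1 day every alternative that tested all 41 genes against no change gave 38 calls, and a minimum count of 50 left 29. A test against a 1.5-fold change called 24 of the 41 at 1 day and 4 at 6 months (Bub1b, Nuf2, Anln and Cdca3). At 6 months the lung calls were 35 with DESeq2, 33 with limma-voom, 33 with no filter, 35 with all 4 lung groups in 1 model and 23 with a minimum count of 50. Leaving out 1 library gave 31 to 34 calls at 6 months, and 0 to 1 for the difference between lung times. Lung and blood labels share numbers (12 at 1 day, 9 at 6 months) but no label states that they mark a rat. Correlations of same-numbered deviations were -0.0472 to 0.104 at 1 day and -0.0543 to 0.0697 at 6 months. Of the lung libraries 2 of 12 and 1 of 9 correlated best with their own number, and of the blood libraries 4 of 12 and 3 of 9. Lung and blood of 1 rat need not deviate together, so whether same-numbered samples came from 1 rat cannot be told from these values. With the number as a replicate block 14 genes differed between tissues at 1 day and 4 at 6 months (Ube2c, Birc5, Cdk1 and Cdca3), against 7 at 6 months in the same libraries with no replicate block. The 14 included Ttk, which had not passed the filter in blood. The shares of all genes called with and without the block are not given here. Birc5 at 1 day (adjusted p = 0.0553) and Anln, Mki67, Prc1 and Melk at 6 months (0.0661, 0.119, 0.131 and 0.275) were not called with it, nor were Mki67, Prc1 and Melk in the same libraries without it (0.14, 0.0503 and 0.108).

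Genes not called changed sign in lung at 6 months: Aurkb was -0.29 to 0.058 on the log2 scale without 1 library, and Spc24 -0.045 to 0.16. Ccnb2, for the difference between lung times, was -0.039 to 0.31 without 1 library. The cause was not tested. Depth limits genes such as Cdk1 in blood most.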
